A study of Mus musculus with 6 samples.

Results

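The PYHIN p200 genes are a mouse family of interferon-inducible genes, and 7 of them were followed here in a macrophage cell line before and after polarization: Aim2, Ifi203, Ifi204, Ifi205, Ifi207, Ifi211 and Mndal. Members were taken by gene symbol from the deposited expression table, and all 7 were found among its 25124 genes. The rule that picks them uses no measured value, but the family was chosen with earlier results of these data known. The cells were RAW264.7, an established mouse macrophage-like line, carried as a control line that had received a plasmid encoding Cas9 with no guide sequence and was made for comparison with E4BP4 knockout cells. All 6 samples share that plasmid history and a culture medium with 25 mM glucose. The 3 M1 samples received 100 ng/ml lipopolysaccharide (LPS, a bacterial cell wall component) and 50 ng/ml interferon-γ (IFN-γ), and the 3 M0 samples received neither. Polyadenylated RNA was sequenced. The sources used here do not give the length of the treatment, and they do not say whether replicates came from separate cultures, so the spread behind each p-value is that among these samples and may be technical. In bulk samples, more expressing cells and more RNA per cell cannot be told apart.

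Most PYHIN proteins carry an N-terminal pyrin domain, which binds other pyrin domains, and 1 or more C-terminal HIN domains, which bind double-stranded DNA. AIM2 is the best understood: when it meets DNA in the cytosol, its pyrin domain recruits the adaptor ASC (gene Pycard) and caspase-1, forming an inflammasome that matures IL-1β and IL-18 and opens gasdermin D pores. The other members were first known as genes switched on by interferon in blood and myeloid cells, and several of their products sit in the nucleus and affect transcription, the cell cycle or the response to DNA.

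All 7 genes lie on chromosome 1 within 611152 bases (mm10, coordinates of the deposited table). Aim2 stands at one end, on the plus strand, at 173420604 to 173466036. A stretch of 257391 bases separates it from the other 6, all on the minus strand: Ifi207 at 173723428 to 173741809, Ifi204 at 173747294 to 173766919, Mndal at 173857220 to 173880187, Ifi211 at 173896341 to 173913046, Ifi203 at 173920401 to 173942492 and Ifi205 at 174011998 to 174031755. The spliced transcripts differ in what they encode. The coding sequence of Ifi207 is the longest, 2934 bases for 978 residues, and that of Aim2 the shortest, 1062 bases for 354 residues. Ifi204 encodes 619 residues, Mndal 538, Ifi211 425, Ifi203 409 and Ifi205 404, in 7 to 10 exons, against 12 exons in Aim2 (GENCODE vM21).

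The sequences just upstream of the genes are shown because the treatment contained an interferon, and the interferon-stimulated response element (ISRE), which interferon regulatory factors bind, has a recognisable core. RefSeq's GRCm38.p6 promoter table held a window around the deposited transcript start for 6 of the 7 members, all but Ifi204. Each window is given over its last 150 bases before the annotated start, read 5′ to 3′ along the gene, with every match to GAAANNGAAA on either strand in capitals.
Ifi203, chr1:173942493-173942642, minus strand: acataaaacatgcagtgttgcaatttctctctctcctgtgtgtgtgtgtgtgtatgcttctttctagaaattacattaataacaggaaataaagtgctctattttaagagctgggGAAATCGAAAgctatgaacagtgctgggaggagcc
Mndal, chr1:173880188-173880337, minus strand: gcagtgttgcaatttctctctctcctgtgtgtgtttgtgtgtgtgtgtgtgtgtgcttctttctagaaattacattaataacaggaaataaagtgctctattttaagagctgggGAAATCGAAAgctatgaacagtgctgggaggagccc
Ifi207, chr1:173741810-173741959, minus strand: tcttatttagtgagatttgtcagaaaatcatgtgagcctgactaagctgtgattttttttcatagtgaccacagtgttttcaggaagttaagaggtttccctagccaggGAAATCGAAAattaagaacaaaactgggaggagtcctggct
Ifi211, chr1:173913047-173913196, minus strand: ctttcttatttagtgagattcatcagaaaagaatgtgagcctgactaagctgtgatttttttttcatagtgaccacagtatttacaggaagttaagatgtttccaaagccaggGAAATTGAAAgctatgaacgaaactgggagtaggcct
Ifi205, chr1:174031756-174031905, minus strand: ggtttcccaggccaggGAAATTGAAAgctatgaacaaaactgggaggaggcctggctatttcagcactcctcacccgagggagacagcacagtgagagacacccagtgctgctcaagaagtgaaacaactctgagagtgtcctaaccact
Aim2, chr1:173420454-173420603, plus strand: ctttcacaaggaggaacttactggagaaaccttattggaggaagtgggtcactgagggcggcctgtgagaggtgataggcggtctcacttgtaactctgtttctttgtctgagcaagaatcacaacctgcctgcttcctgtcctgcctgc

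The capitals fall at nearly the same place in 4 promoters. Counting the annotated start as 0, the match ran from -35 to -26 in Ifi203, -36 to -27 in Mndal, -37 to -28 in Ifi211 and -41 to -32 in Ifi207. In Ifi205 it lay further out, at -134 to -125, with another on the opposite strand inside the transcript at 23 to 32. The Aim2 window held none. Over windows from 250 bases before to 50 after the start, 5 of the 6 members therefore held GAAANNGAAA, against 3.44% of all 32851 promoters in the table (1131). These 5 are not separate cases, because some of the windows are closely alike. Ifi203 and Mndal were 90.7% identical, and Ifi207 and Ifi211 85.9%. The exact form GAAATCGAAA, printed above for Ifi203, Mndal and Ifi207, occurred in 16 promoters of the table, and GAAATTGAAA, printed for Ifi211 and Ifi205, in 38. Both forms were read from the members themselves, and the counts include them, so their rarity is no separate support.

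The promoter windows also resembled each other. Identity was taken over the whole alignment with gaps counted as differences, so windows shifted against each other score low. Ifi203 and Mndal were 90.7% identical and Ifi207 and Ifi211 85.9%, while every other pair lay between 41.8% and 55.4%. That range includes Ifi205 with Ifi211 (47.4% over 399 positions) and with Ifi207 (45.7% over 396). The Ifi205 letters around its match are nonetheless much like theirs, only further from its annotated start. Other short motifs were sparse. GAGGAA, the core bound by the myeloid factor PU.1, was matched only in Aim2, at -140 to -135 and again at -113 to -108, and is common (28.3% of all promoters). The TATA letters TATAAA were matched only in Ifi205, on the opposite strand at 10 to 15 (13.6% of all promoters). The NF-κB letters GGGNNTTTCC (1.63%) and TTANGTAA, the letters of the E4BP4 site (2.32%), were matched in none of the 6 windows. The shorter GAAANNGAA, which the ISRE core contains, was matched in the same 5 members and in 8.56% of all promoters. Motifs were searched on both strands, and a match is a description of letters, not of binding.

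**Figure D1:**
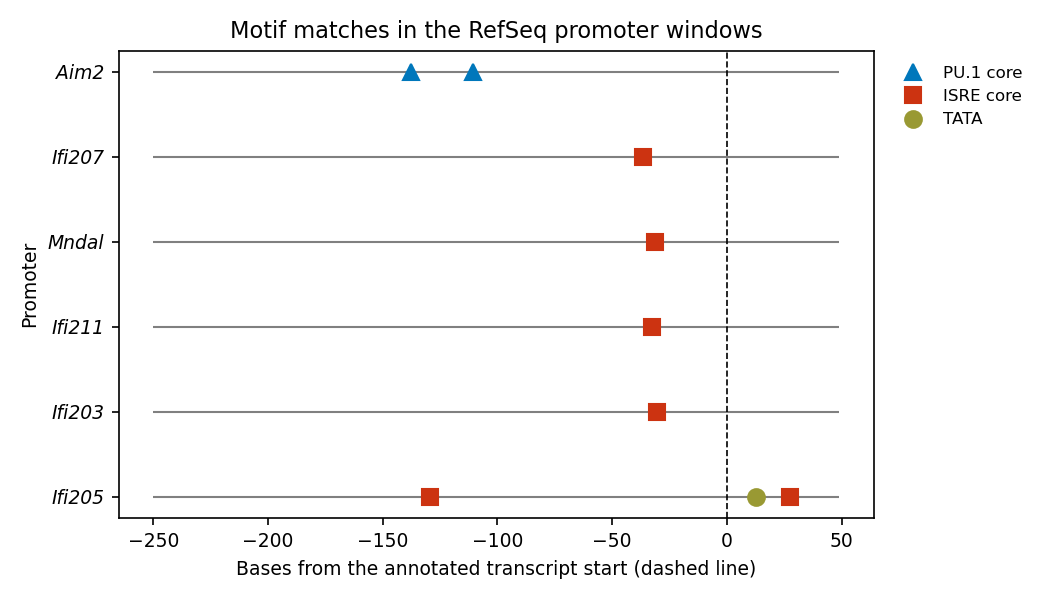
Positions of motif matches (symbols, by motif) in the promoter windows of the 6 members with an entry, in bases from the annotated transcript start at the dashed line. The ISRE core lies between -41 and -26 in 4 promoters, lies elsewhere in Ifi205, and is not matched in Aim2.

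The N-terminal coding sequences are shown because they bear on how well reads can be assigned to one member. The first 120 coding bases of 4 members (GENCODE vM21, GRCm38) follow, with capitals where a base differs from Ifi211.
Ifi211: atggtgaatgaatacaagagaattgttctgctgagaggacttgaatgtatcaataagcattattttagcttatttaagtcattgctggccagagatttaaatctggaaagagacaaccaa
Ifi204: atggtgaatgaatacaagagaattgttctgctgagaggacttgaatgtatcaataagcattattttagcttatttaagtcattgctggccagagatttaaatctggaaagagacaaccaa
Ifi207: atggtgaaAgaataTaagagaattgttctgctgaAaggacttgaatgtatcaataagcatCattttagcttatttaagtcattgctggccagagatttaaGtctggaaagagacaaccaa
Ifi205: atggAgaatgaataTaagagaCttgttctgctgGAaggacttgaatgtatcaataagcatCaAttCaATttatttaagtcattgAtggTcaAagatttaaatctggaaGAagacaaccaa

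Positions were compared one by one without gaps. Ifi204 and Ifi211 were identical over these 120 bases, Ifi207 differed from Ifi211 at 5 and Ifi205 at 15, whereas Ifi203, Mndal and Aim2 differed at 46 or more. The count for Mndal is raised by a shift of a few bases, after which its start is much like that of Ifi203. Over whole coding sequences identity was again taken with gaps counted as differences, so unequal lengths lower it. The highest value was that of Ifi205 and Ifi211, 90%, followed by Ifi211 with Mndal at 68.3% and Ifi204 with Ifi211 at 66.1%. The last alignment ran over 1857 positions, of which Ifi211 can fill only its 1275 coding bases. Closeness per aligned base was not ranked. Aim2 was 27.2% to 51.6% identical to the others by this measure, lowest with the long Ifi207. Expression values of the close copies are uncertain to the extent described further on.

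Expression was read as TPM, a transcript level scaled to transcript length and to the library, so that genes can be set beside each other. Polarization was accompanied by higher levels of 6 of the 7 members, from 4.60-fold in Ifi207 to 253-fold in Ifi205, while Aim2 differed 1.05-fold. The call was an adjusted p under 0.05 in limma, a linear model fitted on log2(TPM + 1) over the 11297 genes that reached 1 TPM in 3 samples or more. The same call took 18.7% of all tested genes as higher in M1 (2111), and 61.5% as lower (6944). The median log2 change was 2.84 over the 7 members and -0.31 over all tested genes. In 6 of the 7 members every M1 library lay above every M0 library, which held for 19.6% of tested genes. A ratio of mean TPM of at least 4 was reached by the same 6, against 3.60% of tested genes. All 7 passed the filter on low values. Ifi205 passed it only through its M1 libraries, so it had to differ, and its place among the 6 is no separate support.

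**Figure D2:**
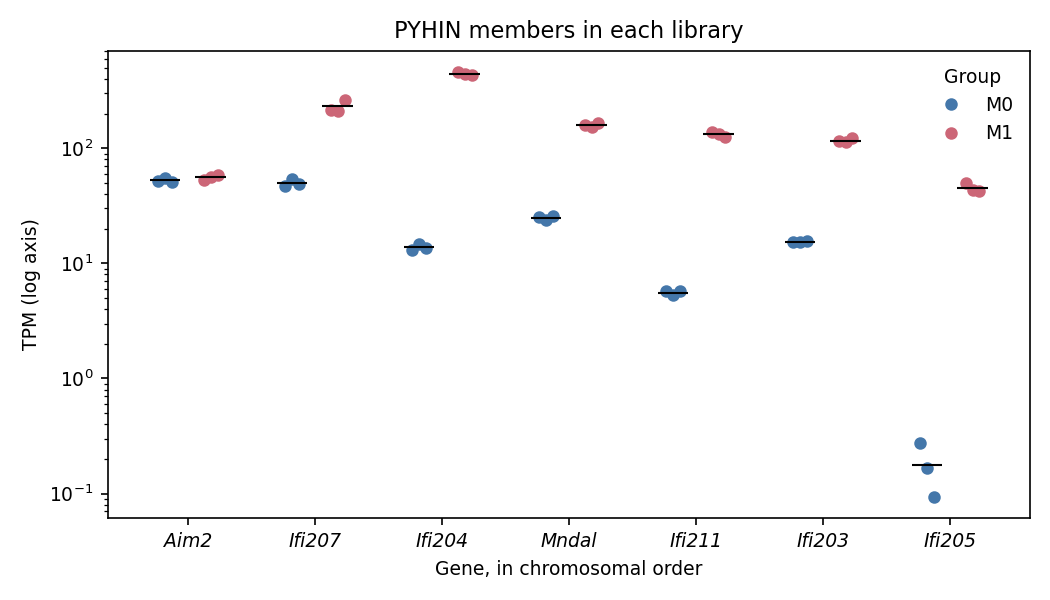
TPM of each member in each of the 6 libraries (log axis), genes in chromosomal order, with a bar at each group's mean of 3. M1 points lie above all M0 points in 6 genes, and the groups of Aim2 overlap between 53.3 and 55.4 TPM.

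Because most tested genes were lower in M1 on the TPM scale, each change was also read after rescaling the libraries by the median of ratios, which sets the typical gene to no change. The median log2 change of all tested genes was then 0.0035, and calls were evenly split, 4173 higher and 4131 lower. On that scale all 7 members were called higher, where 36.9% of tested genes were. The authors' deposited table, made from the same libraries, also gives all 7 an adjusted p-value under 0.05 with a positive log2 fold change. So it does for 17.6% of its 24421 genes, a base that is not limited to the tested genes. Among the 11142 tested genes with values in its log2 columns, limma on those columns called 4282 higher. Aim2 is therefore the one member whose call turned on the scale.

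Aim2, the cytosolic DNA receptor of the family, was the most abundant member in M0. It stood at 52.4, 55.4 and 51.3 TPM in the M0 libraries and 53.3, 56 and 58.2 TPM in the M1 libraries. The groups overlapped, since M0 replicate 2 lay above M1 replicate 1. The means were 53 ± 2.16 and 55.8 ± 2.47 TPM (SD, n = 3 each). The log2 change of 0.07 (SE 0.05, limma adjusted p = 0.213) had a 95% interval from -0.04 to 0.19 on the TPM scale. After rescaling it was 0.41 (interval 0.31 to 0.52, limma adjusted p = 1.64e-05), and the authors' deposited table gives a log2 fold change of 0.44. On each of the 3 scales the change of Aim2 was smaller than that of every other member.

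Ifi204 encodes p204, a nuclear and cytoplasmic protein reported to bind the retinoblastoma protein and to signal through STING when DNA is present. It was the member with the highest level in M1. Its values were 12.9, 14.8 and 13.7 TPM in M0 and 459.8, 441.4 and 428.8 TPM in M1. The groups lay far apart, and the spread within each was small beside the distance between them. The mean rose from 13.8 ± 0.919 to 443.3 ± 15.6 TPM (SD, n = 3 each), 32.1-fold, and the log2 change was 4.91 (SE 0.05, limma adjusted p = 1.65e-14). By level among the 11297 tested genes, Ifi204 moved from rank 6175 in M0 to rank 218 in M1. Its reads numbered 415 to 511 per M0 library and 14972 to 17622 per M1 library, so counting error was minor in both.

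Ifi207, whose long coding sequence sets it apart from the other members, stood beside Aim2 in M0 and above it in M1. It was at 47.4, 54.3 and 48.8 TPM in M0 and 216.8, 211.4 and 263.9 TPM in M1. No M1 library came near an M0 library, but M1 replicate 3 stood above the other two. The mean rose from 50.2 ± 3.64 to 230.7 ± 28.9 TPM (SD, n = 3 each), 4.60-fold, and the log2 change was 2.17 (SE 0.09, limma adjusted p = 1.14e-08). This was the smallest rise of the 6, and the spread in M1 was the widest of the 7 members, at 12.5% of the mean.

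Mndal and Ifi203 rose 6.42-fold and 7.54-fold. Their promoter windows had the highest identity, and those of Ifi207 and Ifi211, with the next highest, belonged to genes that rose 4.60-fold and 23.8-fold. Mndal encodes a nuclear protein related to human MNDA, and Ifi203 encodes p203. Mndal stood at 25.2, 23.95 and 25.6 TPM in M0 and 160.3, 152.3 and 167.3 TPM in M1. Ifi203 stood at 15.2, 15.5 and 15.8 TPM in M0 and 115.1, 112.4 and 122.4 TPM in M1. For both genes the groups were well apart, and M1 replicate 2 was the lowest and replicate 3 the highest of the M1 libraries. Mndal rose from a mean of 24.9 ± 0.861 to 160 ± 7.52 TPM (SD, n = 3 each), with a log2 change of 2.64 (SE 0.05, 95% interval 2.52 to 2.75, limma adjusted p = 1.79e-12). Ifi203 rose from 15.5 ± 0.301 to 116.7 ± 5.18 TPM (SD, n = 3 each), with a log2 change of 2.84 (SE 0.05, 95% interval 2.73 to 2.94, limma adjusted p = 8.34e-13). The 2 intervals overlap, and the difference between the genes was not tested.

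Ifi211 and Ifi205, the pair with the highest identity over whole coding sequences, were the 2 least abundant members in M0. Ifi211 is listed as Mnda in the authors' comparison table. It stood at 5.69, 5.28 and 5.70 TPM in M0 and 139.5, 132.4 and 125 TPM in M1. The M0 libraries were all low and the M1 libraries all high, with no overlap. The mean rose 23.8-fold, from 5.56 ± 0.24 to 132.3 ± 7.28 TPM (SD, n = 3 each), and the log2 change was 4.34 (SE 0.06, limma adjusted p = 7.77e-14). Its rank by level among tested genes went from 8716 to 794.

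Ifi205, which encodes p205, a protein reported to promote transcription of the inflammasome adaptor gene Pycard, was close to undetected in M0. Its values there were 0.28, 0.165 and 0.09 TPM, which come from 7, 4 and 2 reads. In M1 it stood at 49.5, 43.5 and 42.4 TPM, from 1333, 1201 and 1039 reads. The M0 level thus rests on 13 reads in all (exact 95% Poisson interval 6.92 to 22.2, counting error only), and the groups did not overlap. Because Ifi205 passed the filter on low values only through its M1 libraries, that separation was fixed, and its adjusted p is no separate support. The mean went from 0.179 ± 0.092 to 45.1 ± 3.85 TPM (SD, n = 3 each), a ratio of 253. From pooled reads the ratio was 246, with a counting interval of 144 to 463. The log2 change was 5.29 (SE 0.08, limma adjusted p = 3.71e-13) with the pseudocount of 1 TPM and 7.39 with 0.1 TPM, so its size depended on that choice. The authors' deposited table gives 8.30. In M1 Ifi205 was still the least abundant of the 7, below Aim2 in every library.

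**Figure D3:**
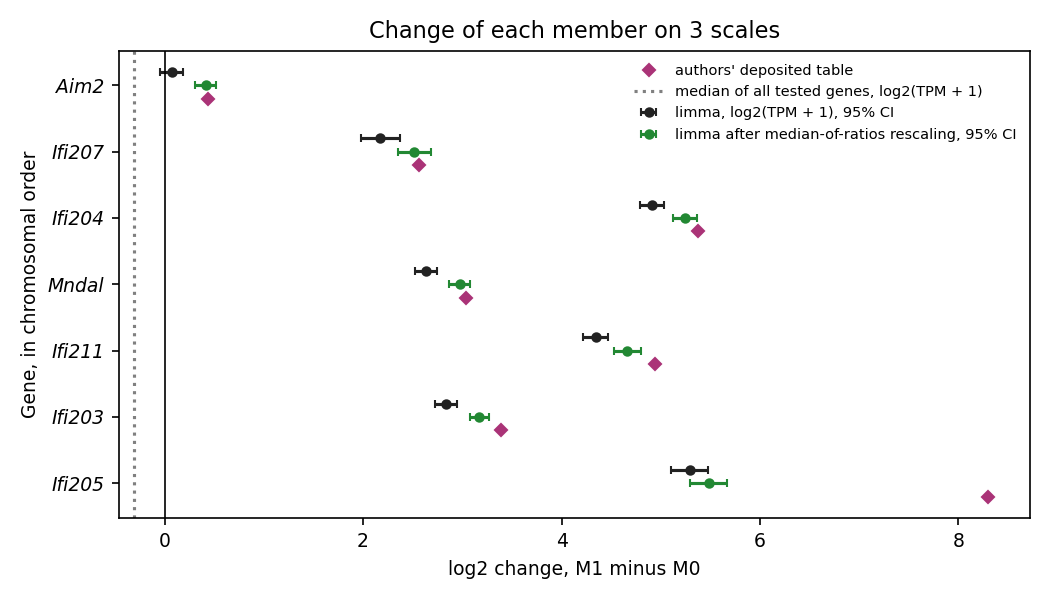
log2 change of each member, M1 minus M0, from limma on log2(TPM + 1) and after median-of-ratios rescaling (points with 95% intervals), and the log2 fold change in the authors' deposited table (diamonds), with the median of all tested genes as a dotted line at -0.31. Aim2 lies next to 0 on the TPM scale and at 0.41 after rescaling, and the other 6 lie at 2.17 or above on every scale.

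The order of the members changed with polarization. In M0 the order by mean TPM was Aim2 (53) and Ifi207 (50.2), then Mndal (24.9), Ifi203 (15.5) and Ifi204 (13.8), then Ifi211 (5.56) and Ifi205 (0.179). Aim2 and Ifi207 overlapped in their M0 libraries, and the neighbours Ifi203 and Ifi204 did not overlap, with the lowest Ifi203 library at 15.18 and the highest Ifi204 library at 14.76 TPM. In M1 the order was Ifi204 (443.3), Ifi207 (230.7), Mndal (160), Ifi211 (132.3), Ifi203 (116.7), Aim2 (55.8) and Ifi205 (45.1). Each neighbouring pair in M1 was separated in all libraries. Among all tested genes, ranked by level, Ifi207 went from 2202 to 431, Mndal from 4201 to 640, Ifi203 from 5816 to 943 and Ifi205 from 11214 to 2304. Aim2 went from 2082 to 1908.

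The summed level of the 7 members was 159, 169.3 and 161 TPM in M0 and 1194, 1149 and 1208 TPM in M1. The M1 sums were all higher, 7.26-fold on average, and 10.3-fold without Aim2. The make-up of that sum shifted toward Ifi204. Aim2 supplied 32.5% ± 0.58 of it in M0 and 4.72% ± 0.22 in M1 (SD, n = 3 each). Ifi204 supplied 8.46% ± 0.30 and 37.5% ± 1.71, and Ifi211 3.41% ± 0.26 and 11.2% ± 0.73. The share of Ifi207 was 30.7% ± 1.18 in M0 and 19.5% ± 2.07 in M1, still next to the largest. Ifi203 kept nearly the same place, at 9.49% ± 0.34 and 9.85% ± 0.26, with overlapping groups. Mndal supplied 15.3% ± 1 and 13.5% ± 0.31, and Ifi205 0.11% ± 0.06 and 3.81% ± 0.32. Shares of one sum are tied to each other, so a larger share of one member lowers the others.

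**Figure D4:**
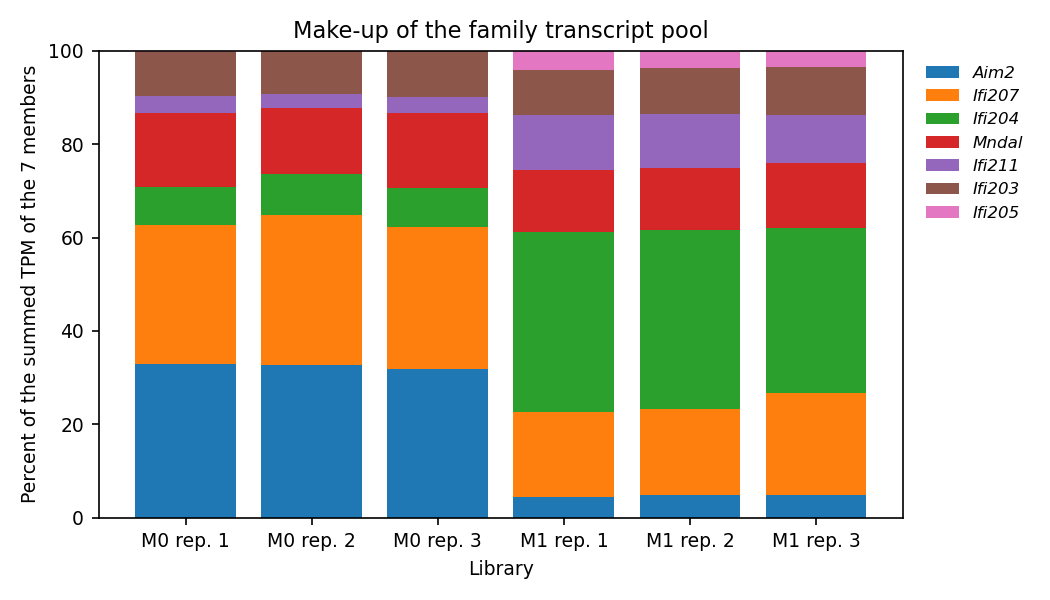
Percent of the summed TPM of the 7 members supplied by each member (stacked colours) in each of the 6 libraries. Aim2 and Ifi207 make up most of the M0 bars, and Ifi204 is the largest block of every M1 bar.

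A ratio of 2 genes within a library does not depend on how the library was scaled, so each member was also read against Aim2. Ifi204 was at 0.247, 0.267 and 0.268 of the Aim2 level in M0 and at 8.64, 7.88 and 7.37 times that level in M1. Ifi207 was at 0.905, 0.98 and 0.953 in M0 and at 4.07, 3.78 and 4.54 in M1. Both genes lay below Aim2 in every M0 library and above it in every M1 library. Ifi205 went from at most 0.00529 to between 0.728 and 0.93. The mean log2 ratio (pseudocount 0.1 TPM) was higher in M1 by 4.92 for Ifi204, 2.12 for Ifi207, 2.60 for Mndal, 2.83 for Ifi203, 4.47 for Ifi211 and 7.32 for Ifi205. None of the 6 ratios overlapped between groups, and of all 11296 tested genes besides Aim2 16.7% had a ratio to Aim2 that was higher in M1 with no overlap. The two-sided exact permutation test gave p = 0.10 for each, the smallest that 3 against 3 samples allow, and 0.10 after Benjamini-Hochberg adjustment over the 6 ratios. All 6 ratios share Aim2 as their denominator. Ifi205 passed the filter on low values only through its M1 libraries, so the separation of its ratio is no separate support. Its M0 level rests on 13 reads, and its ratio difference was 5.22 with a pseudocount of 1 TPM.

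How far a read can be given to one member was examined on the transcripts themselves. Each member's spliced transcript was cut into all windows of 50 bases, and each window was looked for, unchanged, in 51 transcripts of 14 genes of the family. Of the Ifi211 windows 72.9% occurred in another family transcript, and so did 49.6% of Ifi205, 29.9% of Ifi204, 27.2% of Mndal, 8.88% of Ifi203 and 5.31% of Ifi207. No window of Aim2 was shared. With windows of 100 bases the shares were 56.9% for Ifi211, 41.5% for Ifi205, 16.8% for Ifi204 and 7.63% for Mndal. Between single members, 49.5% of Ifi205 windows lay in Ifi211, where the longest common stretch was 495 bases, and 23.2% of Ifi204 windows lay in Ifi211, with 306 bases in common at most. The read length, and what was done with reads that fit several places, are not stated in the sources. The levels of Ifi211 and Ifi205, and to a lesser degree of Ifi204 and Mndal, are therefore uncertain in the amount each received from its copies. Aim2, Ifi207 and Ifi203 had few or no such windows.

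**Figure D5:**
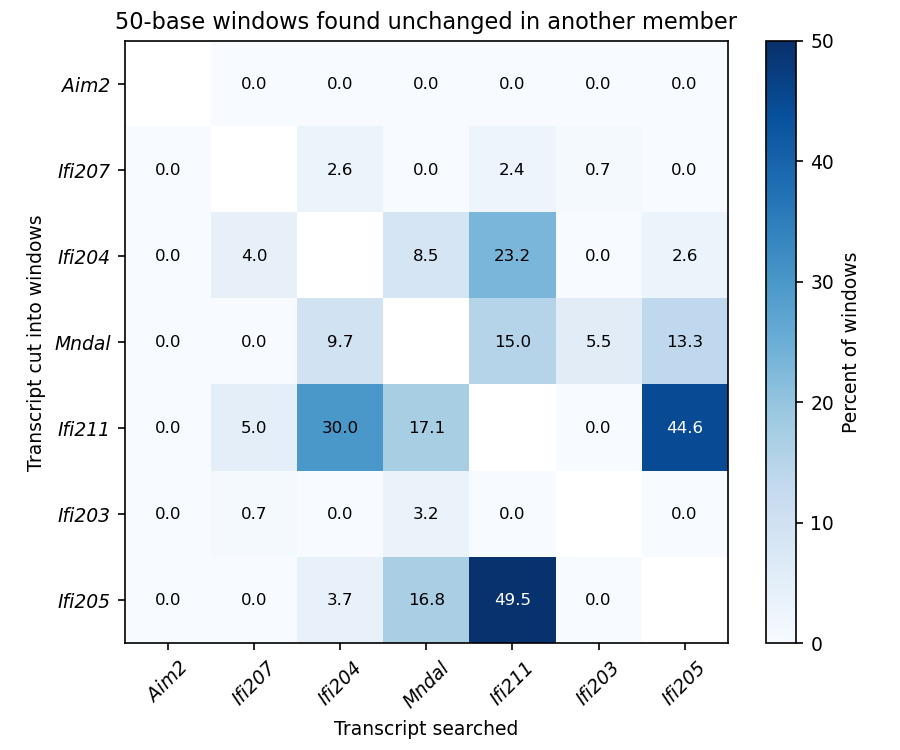
Percent of the 50-base windows of each member's transcript (vertical axis) that occur unchanged in the transcript of another member (horizontal axis). The darkest cells are Ifi205 in Ifi211 at 49.5% and Ifi211 in Ifi205 at 44.6%, and the Aim2 cells are all at 0.

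Other genes of the locus were looked up from a list of 14 names, of which 5 were found in the table and 3 were tested. All 3 were called higher in M1, as were 18.7% of all tested genes, but Ifi209 passed the filter on low values only through its M1 libraries. It therefore had to differ. Ifi202b, which encodes a protein with HIN domains and no pyrin domain and is known to counter AIM2, stood at 79.0, 77.3 and 72.7 TPM in M0 and 1081, 1033 and 996.4 TPM in M1. That was a 13.6-fold rise (log2 change 3.75, limma adjusted p = 7.77e-14), and the M1 mean of 1037 ± 42.5 TPM (SD, n = 3) was above that of each of the 7 members. Ifi209 stood at 0.27, 0.34 and 0.30 TPM in M0 and 18.5, 17.7 and 18.7 TPM in M1, a log2 change of 3.89 (limma adjusted p = 1.02e-12). Ifi213 rose 1.38-fold, from 7.71 to 10.6 TPM on average (limma adjusted p = 0.000119), and was the nearest to Aim2 in the size of its change. Ifi208 and Ifi214 were below the filter, at no more than 0.51 TPM in any library. Windows shared with other transcripts were not counted for these genes.

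Of 15 genes of the AIM2 inflammasome and of pyroptosis, 14 were tested, 9 were called higher and 5 lower, with a median log2 change of 0.97. Of all tested genes 18.7% were called higher and 61.5% lower, with a median of -0.31. Il1b and Il1a, and in the lists that follow Zbp1, Socs1, Ifnb1 and Igsf9, passed the filter only through their M1 libraries. Their higher calls are therefore no separate support. Il1b, which encodes the IL-1β precursor that caspase-1 cuts, rose from 0.24 ± 0.05 to 387.1 ± 20.1 TPM (SD, n = 3 each), a log2 change of 8.29 (limma adjusted p = 5.26e-16). Casp4, the mouse caspase-11 that senses intracellular LPS, rose 15.6-fold from 19.2 to 299.6 TPM. Gsdme, a pore-forming gasdermin cleaved by caspase-3, fell from 8.69 to 1.52 TPM, and Nek7, a partner of NLRP3, from 56.4 to 33 TPM. The direct partners of AIM2 were added after their values were seen. Casp1 rose 3.86-fold, from 86.1 ± 5.04 to 331.9 ± 16.5 TPM. Pycard, which encodes the adaptor ASC, fell from 53.3 ± 1.91 to 35.96 ± 2.13 TPM (log2 change -0.56, limma adjusted p = 2.58e-06, and -0.22 after rescaling). Gsdmd rose 1.44-fold, from 56 to 80.7 TPM.

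In the wider list of cytosolic DNA sensing, 19 of 21 names (some of them older symbols of the same gene) were found and tested. Of these, 8 were called higher and 11 lower, against 18.7% and 61.5% of all tested genes. Lower calls were thus about as common in the list as among all tested genes. The median log2 change was -0.18, against -0.31. The list's split depended on the scale, since after rescaling 10 were higher and 6 lower, where 36.9% of all tested genes were higher. Irf7, a transcription factor of the interferon response, rose from 13 to 274.6 TPM, and Trex1, an exonuclease that removes cytosolic DNA, rose 15.2-fold from 22.5 to 340.9 TPM. Xrcc6, the Ku70 subunit of the DNA end-binding complex, fell from 56.6 to 28.5 TPM, and Lrrfip1, a nucleic acid-binding protein, from 100.5 to 35.7 TPM. Xrcc6 and Lrrfip1 were also called lower after rescaling.

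The interferon receptors, JAK-STAT components and interferon regulatory factors were mostly called higher. All 16 were tested, 14 were called higher and 2 lower, against 18.7% and 61.5% of all tested genes, with a median log2 change of 1.29 against -0.31. Among the 14 are Socs1 and Ifnb1, which needed their M1 libraries to pass the filter on low values. Irf1, a factor that binds ISRE sequences, rose 23.3-fold from 20.5 ± 0.69 to 477.8 ± 4.76 TPM (SD, n = 3 each). Socs1, a feedback inhibitor of JAK kinases, rose from 1.09 to 197.8 TPM. Ifngr1, the ligand-binding chain of the IFN-γ receptor, fell from 24.2 to 11.6 TPM (log2 change -1.004, limma adjusted p = 1.001e-08). Ifnar1, a chain of the type I interferon receptor, fell from 18.3 to 14.6 TPM on the TPM scale only, since its log2 change after rescaling was 0.02.

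Partners reported for p204 were split. Of 10 genes 7 were tested, 4 were called higher and 3 lower, against 18.7% and 61.5% of all tested genes. Id3 and Id2, inhibitors of helix-loop-helix transcription factors, rose 4.02-fold (49.9 to 200.5 TPM) and 2.05-fold (198 to 406.1 TPM). Ubtf, the ribosomal RNA transcription factor UBF, fell from 46.7 to 25.2 TPM, and Rbl2, the retinoblastoma-related p130, from 11.8 to 3.65 TPM. All 4 of these calls also held after rescaling.

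For the genes flanking the locus the calls depended on the scale. Of 16 names (some of them older symbols) 14 were found and 5 were tested. Among the 5, 3 were called higher and 1 lower, against 18.7% and 61.5% of all tested genes. Another 4 (Ackr1, Fcer1a, Crp and Apcs) were at 0 in all 6 libraries. Slamf8, a receptor of macrophages, rose 31.4-fold from 3.02 to 94.9 TPM. Igsf9 rose from 0.65 to 1.93 TPM. Dusp23, a phosphatase gene, was at 2.64 ± 0.21 in M0 and 2.96 ± 0.27 TPM in M1 (SD, n = 3 each; limma adjusted p = 0.193), and was called higher only after rescaling. Tagln2, a cytoskeletal gene at 828.7 and 771.9 TPM, had a log2 change of -0.10 that turned to 0.25 after rescaling. After rescaling all 5 tested neighbours were called higher, as were 36.9% of all tested genes.

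The ISRE letters printed above were also read against all promoters that could be tied to a tested gene (8434 genes, of which 19% were called higher in M1). With the members left out, 296 of these genes held GAAANNGAAA, and 133 of them, 44.9%, were called higher. Their median log2 change was 0.0063, against -0.31 over the 8434. After rescaling, 67.6% of them were called higher, against 37.6%. The letters were thus held by genes that were called and by genes that were not. These shares are descriptions, with no test.

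For each member, the gene outside the family with the closest pattern was found by the root mean square distance between the 6 values of log2(TPM + 1), each less its M0 mean. The distances are small steps of log2. Ifi203 lay nearest to Arid5a (0.046), an RNA-binding protein gene of the inflammatory response. Ifi204 lay nearest to Il1a (0.076), at 0.083 and 33.8 TPM in M0 and M1, and Ifi205 to Ifit3 (0.093), an interferon-induced antiviral gene at 0.53 and 61.2 TPM. Mndal lay nearest to Peli1 (0.059), a ubiquitin ligase gene at 16.8 and 111 TPM, and Ifi207 to Adar (0.064), an RNA editing enzyme gene at 24 and 109 TPM. Ifi211 lay nearest to Apol10b (0.081), at 0.59 and 33.4 TPM, and Aim2 to Kif3c (0.025), a kinesin gene at 7.02 and 7.29 TPM. On the log2(TPM + 1) scale each nearest gene had a group difference of about the member's own size. The likeness, over only 6 samples, mostly restates that difference. As ratios of mean TPM the sizes can be far apart, because the pseudocount of 1 TPM shrinks rises from near 0. Il1a rose 407-fold and Ifi204 32.1-fold. Il1a, Ifit3 and Apol10b passed the filter on low values only through their M1 libraries, so they had to differ.

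Libraries held 15615639 to 20283180 reads in genes, recovered from TPM and transcript length, with the M1 libraries between 18666940 and 20283180 and the M0 libraries between 15615639 and 18110568. Libraries of a group correlated at 0.9946 or more across tested genes, and those of different groups at 0.874 or less. All 10 macrophage markers were tested, with 3 called higher and 6 lower, against 18.7% and 61.5% of all tested genes. After rescaling 4 were higher and 4 lower, where 36.9% of all tested genes were higher. The summed level of the 10 markers was 3622 to 3941 TPM in M0 and 3127 to 3220 TPM in M1. Their median log2 change was -0.38, or -0.03 after rescaling. Cd14 stood at 637.5 and 649.5 TPM (limma adjusted p = 0.552), Lyz2 fell from 1069 to 682.9 TPM, and Adgre1, the F4/80 antigen, rose from only 2.73 to 67.6 TPM. Markers of other cell types were low in both groups. T cell markers summed to 3.49 to 4.404 TPM in M0 and 1.9 to 2.804 TPM in M1, nearly all from Lat, with Cd3g and Cd8a at 0. Neutrophil markers summed to 4.51 to 5.85 TPM and 3.19 to 3.904 TPM, nearly all from S100a8, with S100a9, Mpo and Retnlg at 0. Fibroblast markers summed to 0.782 to 1.08 TPM and 1.19 to 1.52 TPM, and epithelial markers to at most 0.172 TPM in M0 and 0.064 TPM in M1 (Krt8 and Krt18 at 0). The part of these differences in the PYHIN values was not tested.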

How the data were processed

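RNA was sequenced from 6 samples of RAW264.7 cells, 3 per group, grouped by their titles. Build mm10, STAR 2.7.5a, HOMER 4.11.1, bcl2fastq and DESeq2 are named, without their roles, per the submitters' processing notes. The authors deposited TPM per gene for 25124 genes, per the file headers, and a second table with log2 values, a log2 fold change, a p-value and an adjusted p-value per gene. The transform behind its log2 columns is not stated, and it lists other transcripts for Ifi203 and Ifi211.

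Members, gene lists and tests were chosen with earlier results of these data known. limma 3.58.1 (R 4.3.3; trend and robust empirical Bayes, group as the only term) was fitted to log2(TPM + 1) for genes with at least 1 TPM in 3 samples or more, with Benjamini-Hochberg adjustment over all 11297 genes and calls under 0.05. SDs are of TPM and folds are ratios of mean TPM, whereas log2 changes are on the log2(TPM + 1) scale. Reads were recovered from TPM and transcript length (whole within 0.1 for 99.8% or more of values above 0), and their intervals cover counting error only. Each TPM at 2000 bases stood for 26.5 to 34.4 reads. Named besides the 7 members were, from each list, up to 2 higher and 2 lower genes of smallest p, the most abundant gene not called, and each member's nearest gene by pattern. Casp1, Pycard, Gsdmd and further genes given by counts or markers fall outside that rule. Promoters came from RefSeq GRCm38.p6 and coding sequences from GENCODE vM21, matched by RefSeq transcript. Some listed genes, markers and motifs are not reported here. Alternatives were the pseudocount, the filter, 2 rescalings, the authors' log2 columns, plain empirical Bayes, a replicate block and each library left out.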

Additional observations from a re-analysis of the deposited data

How the results depend on the processing

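The 182 recomputed values comprise 173 that kept their direction and call or, for counts and ratios, stayed near the reported value. The rises of Ifi203, Ifi204, Ifi205, Ifi207, Ifi211 and Mndal were called under all 14 alternatives, with log2 changes of 2.80 to 3.32, 4.87 to 5.25, 5.22 to 7.39, 2.07 to 2.52, 4.31 to 4.72 and 2.60 to 2.97. Ifi207 was lowest, at 2.07, without M1 replicate 3. Aim2 ranged from 0.04 to 0.43 and was called under 3 alternatives: 0.41 with median-of-ratios rescaling (limma adjusted p = 1.64e-05), 0.21 with upper-quartile rescaling (0.00183) and 0.43 on the authors' log2 columns (1.71e-06). Counts of all genes were 4173 higher and 4131 lower after median-of-ratios rescaling, and 4282 higher and 4003 lower on the authors' log2 columns, against 2111 and 6944, while upper-quartile rescaling gave 2756 and 5777. With a pseudocount of 1 TPM the log2 ratio difference to Aim2 was 5.22 for Ifi205 and 4.27 for Ifi211. Each library left out in turn gave 1990 to 2076 higher and 6606 to 6997 lower genes, with 6 members called each time. With a replicate block, 2143 genes were higher and 7016 lower, and 6 members were called (Aim2 adjusted p = 0.222). Libraries with the same number did not deviate together (correlations 0.07, -0.08 and 0.04), so the numbers were not taken as pairs. Depth limits the M0 level of Ifi205, which rests on 13 reads.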
